A study of Homo sapiens with 6 samples.

Results

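The cytokine and chemokine set examined here consists of CXCL1, CXCL2, CXCL3, CXCL8, IL1A, IL1B, IL6, LIF, CSF1 and TNFAIP3. These 10 genes were chosen by name, with earlier results of these data known. All were found among the 21494 genes of the count table. RNA-seq was carried out on 6 samples labelled as G361, a human melanoma cell line. In 3 of them the cells expressed a control shRNA (Control sh, genotype label WT), and in the other 3 an shRNA against the coding region of VprBP, the product of DCAF1 (VprBP sh, genotype label DCAF1 Knockdown). The VprBP shRNA was delivered by lentivirus and the infected cells were selected with puromycin, and the knockdown rests on a single shRNA. Whether the control cells went through the same infection and selection is not given in the sources used here. The labels do not say whether replicates came from separate cultures, and the p-values below then measure only the spread between these samples.

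The products of these genes carry or restrain signals of the inflammatory response. CXCL1, CXCL2, CXCL3 and CXCL8 are small chemokines that attract neutrophils through the receptor CXCR2. IL1A and IL1B are the ligands of the interleukin-1 receptor, which signals through MYD88 and IRAK kinases to the transcription factor NF-kB. NF-kB in turn switches on the chemokines, IL6 and TNFAIP3, and the TNFAIP3 protein (A20), which edits ubiquitin chains, shuts the pathway down again. IL6 and LIF signal through receptors that share the subunit IL6ST (gp130) to STAT3, and CSF1 is the growth factor of macrophages. Many epithelial and melanoma cell lines make these factors without any immune cell being present.

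The samples were first checked for the targeted gene and for the cell type named in the labels. DCAF1 had 688, 893 and 884 counts in the controls against 681, 488 and 628 with VprBP sh. The normalized counts were 860 ± 90 (SD, n = 3) and 577 ± 153 (SD, n = 3), or a log2 fold change of -0.58 with SE 0.17 (edgeR adjusted p = 0.0125), and the groups did not overlap, although the decrease was under 2-fold. DCAF1 overlaps RBM15B on the opposite strand, and reads of the 2 genes may not be fully separated. An exact two-sided permutation test of these values gave p = 0.1, which is the lowest p that groups of 3 can reach. Total counts ran from 18195949 to 26883948 per sample, and mitochondrial genes took 1.96% to 1.98% of them in the controls against 4.10% to 4.48% with VprBP sh. Replicate 1 stood apart from replicates 2 and 3 in each group, with a chi-square per degree of freedom of 17.6 to 29.1 against 2.36 to 2.50 between replicates 2 and 3. Of 8 melanocyte-lineage markers, SOX10, TYR, DCT and S100B had no row in the table analysed here and MLANA and TYRP1 had at most 5 counts in a sample, while MITF had 154 to 312 counts and PMEL 28 to 46. The list summed to 197 to 234 normalized counts in the controls against 242 to 305 with VprBP sh. The summed level of 10 urothelial markers, 8 of them in the table, was 102869 to 112418 normalized counts in the controls against 24846 to 28261 with VprBP sh, most of it from the keratin genes KRT5 and KRT7. Of the 7 tested, 4 were called as lower and 2 as higher. TP63 had 8715, 7670 and 8806 counts in the controls against 9, 8 and 13 with VprBP sh, whereas GATA3 had 7, 1 and 0 against 1580, 1334 and 1873. The source field of the labels names LD611 in place of G361. Of 12 leukocyte markers, 8, among them PTPRC, CD3E and LYZ, had no row, and the summed level of the list was 1647 to 2412 normalized counts in the controls against 134 to 476 with VprBP sh, with CD14, CD68 and LAPTM5 the 3 tested and called as lower. Fibroblast markers summed to 760 to 801 against 454 to 596 normalized counts and endothelial markers to 691 to 716 against 32.1 to 40.2. The part of these differences in the results below was not tested. Whether both groups hold the same cells was not tested either. This design cannot tell a difference in cell identity between the groups from an effect of the shRNA. In bulk RNA fewer cells of a type and less RNA per cell cannot be told apart.

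The comparison of the groups asked how these inflammatory genes differed between VprBP sh and Control sh. All 10 genes passed the filter on low counts, several of them through the Control sh samples alone, and 9 of the 10 were called as lower in VprBP sh, where a gene was called if it differed more than 2-fold with an adjusted p below 0.05 in the edgeR quasi-likelihood test. None was called as higher. CXCL2 was the exception and was not called. Of all 16756 genes tested, 46.4% were called, 22% as lower and 24.5% as higher. Control sh and VprBP sh values were fully separate for 9 of the 10 genes, as they were for 79.5% of all genes tested in either direction and 37.3% with the lower values in VprBP sh. The median log2 fold change of the 10 genes was -6.27, or -5.12 with the genes at 0 counts set at their limits (below). That of all genes tested was 0.08. These shares and medians are no test of the 10 genes, which were chosen with earlier results of these data known. The size of the decrease differed widely among the 9 genes called, from the complete absence of IL1A, IL1B and IL6 reads to the 3.95-fold decrease of CXCL3.

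**Figure D1:**
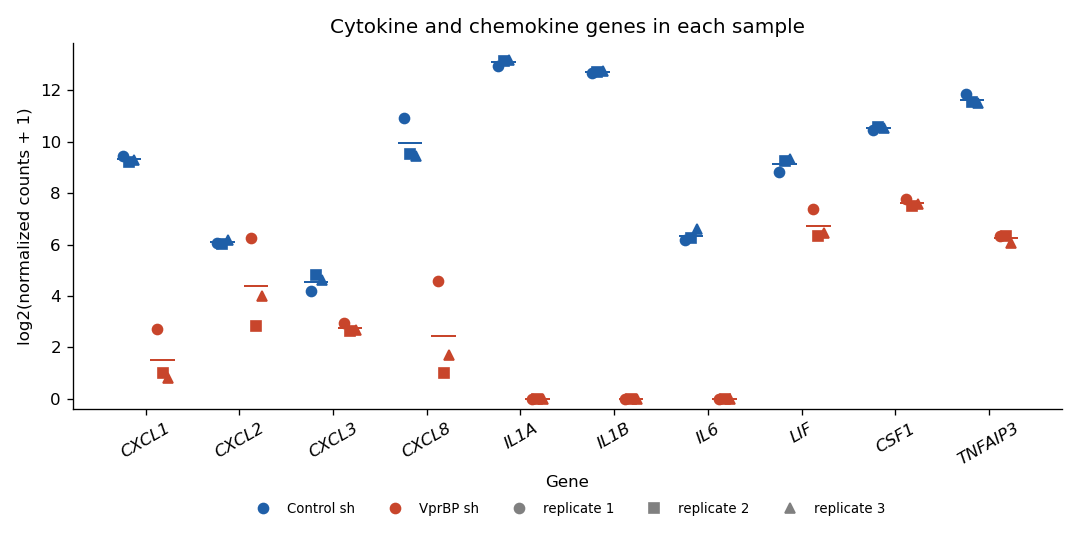
Normalized counts of the 10 genes in each sample, as log2(normalized counts + 1), with Control sh in blue, VprBP sh in red, replicates by symbol and a line at the mean of each group. IL1A, IL1B and IL6 lie at 0 in all 3 VprBP sh samples, and CXCL2 is the gene whose groups overlap.

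CXCL1, CXCL2, CXCL3 and CXCL8 lie in the CXC chemokine cluster of chromosome 4. Their values (below) ranged from near absence in VprBP sh to no call. Promoter sequences from RefSeq (GRCh38.p14) were matched for 8 of the 10 genes, all but LIF and CSF1. The letters GGAATTTCC, a form of the NF-kB binding motif, occur on either strand within the 250 bases before the start of all 4 chemokine genes and in 0.428% of 27305 promoters, these letters having been chosen after the sequences were read. The broader form GGNNNTTCC, which includes it, occurs in 6 of the 8 genes (CXCL1, CXCL2, CXCL3, CXCL8, IL6 and TNFAIP3) and in 17.1% of all promoters. TGANTCA, the AP-1 motif, was found in CXCL8 and IL1A and in 6.6% of all promoters. A match describes the letters and not a bound site. The 150 bases before the start (GRCh38.p14) are shown 5' to 3' for the 4 chemokines and for IL6. Gene starts are as in RefSeq, which can differ from those of the count table. Matches to GGNNNTTCC or TGANTCA are in capitals. Whether these letters bear on the values of the genes was not tested.
CXCL1, chr4:73869243-73869392, plus strand: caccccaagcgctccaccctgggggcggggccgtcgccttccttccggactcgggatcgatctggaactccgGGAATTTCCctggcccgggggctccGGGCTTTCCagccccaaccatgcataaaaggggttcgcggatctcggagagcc
CXCL2, chr4:74099196-74099345, minus strand: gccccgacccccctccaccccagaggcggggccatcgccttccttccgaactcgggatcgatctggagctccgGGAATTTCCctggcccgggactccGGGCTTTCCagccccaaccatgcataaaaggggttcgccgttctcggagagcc
CXCL3, chr4:74038690-74038839, minus strand: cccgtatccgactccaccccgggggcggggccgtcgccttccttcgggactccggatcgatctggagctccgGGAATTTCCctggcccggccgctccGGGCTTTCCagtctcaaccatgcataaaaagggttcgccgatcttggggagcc
CXCL8, chr4:73740419-73740568, plus strand: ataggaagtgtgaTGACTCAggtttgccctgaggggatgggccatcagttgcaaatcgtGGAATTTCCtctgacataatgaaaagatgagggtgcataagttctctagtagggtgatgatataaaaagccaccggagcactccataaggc
IL6, chr7:22727050-22727199, plus strand: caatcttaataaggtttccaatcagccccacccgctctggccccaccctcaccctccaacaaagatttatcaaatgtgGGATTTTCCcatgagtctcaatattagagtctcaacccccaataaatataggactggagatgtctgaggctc
Over these 150 bases CXCL1 and CXCL2 were identical at 88.7% of the aligned positions, CXCL1 and CXCL3 at 88.1% and CXCL2 and CXCL3 at 86.1%, whereas CXCL8 was identical to these genes at 43.6% to 47.3%. The GGAATTTCC match ends 70 bases before the start in CXCL1 and CXCL3, 69 in CXCL2 and 83 in CXCL8.

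CXCL1 (ENSG00000163739.5), at chr4:73869393-73871308 on the plus strand in hg38, had 601, 550 and 670 counts in the controls against 5, 1 and 1 with VprBP sh. CXCL8 (ENSG00000169429.12), which encodes interleukin-8 and lies at chr4:73740519-73743716 on the plus strand, had 1680, 682 and 730 counts in the controls against 21, 1 and 3 with VprBP sh. Both chemokines were thus present in every Control sh sample and nearly absent in VprBP sh, with no overlap. Normalized counts of CXCL1 fell from 637 ± 49 (SD, n = 3) to 2.44 ± 2.68 (SD, n = 3), or a log2 fold change of -8.10 with SE 0.31 (edgeR adjusted p = 1.91e-08). Those of CXCL8 fell from 1116 ± 704 to 8.84 ± 12.5 (SD, n = 3), or a log2 fold change of -7.11 with SE 0.70 (edgeR adjusted p = 1.07e-05). Replicate 1 carried the highest CXCL8 value of each group, and the log2 fold change was -6.46 without Control sh replicate 1 and -9.22 without VprBP sh replicate 1, while that of CXCL1 was -9.32 without VprBP sh replicate 1.

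CXCL2 (ENSG00000081041.9), at chr4:74097040-74099196 on the minus strand, had 58, 59 and 75 counts in the controls against 68, 6 and 20 with VprBP sh. CXCL3 (ENSG00000163734.4), at chr4:74036589-74038807 on the minus strand, had 15, 25 and 25 counts in the controls against 6, 5 and 7 with VprBP sh. These 2 chemokines were low in both groups, and for CXCL2 the VprBP sh replicate 1 was at the level of the controls while replicates 2 and 3 lay below it. CXCL3 went from 22.5 ± 4.9 to 5.70 ± 0.82 normalized counts (SD, n = 3), or a log2 fold change of -1.98 with SE 0.36 (edgeR adjusted p = 0.000734). CXCL2 had 66.8 ± 3.5 and 32.2 ± 37.5 normalized counts (SD, n = 3), or a log2 fold change of -1.10 with SE 0.65 (edgeR adjusted p = 0.149). A decrease of CXCL2 was called without VprBP sh replicate 1, at a log2 fold change of -2.58 (adjusted p = 0.000356 from edgeR), and with limma-voom, at -1.80 (adjusted p = 0.0266). The make-up of the chemokine counts differed accordingly. CXCL2 gave 2.46% to 5% of the summed counts of the 4 chemokines in the Control sh samples and 46.2% to 68% in the VprBP sh samples, where the sums were 100, 13 and 31 counts. For the 13 counts of VprBP sh replicate 2 the 95% Wilson interval of the CXCL2 share, which covers counting error only, was 23.2% to 70.9%.

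The counts of CXCL1, CXCL2 and CXCL3 carry an uncertainty that those of CXCL8 do not, because the mRNAs of those genes resemble one another. Of the distinct 50-base windows in the annotated transcripts, a length equal to that of the reads, 60 of 1313 in CXCL1 (4.57%), 193 of 1444 in CXCL2 (13.4%) and 139 of 2313 in CXCL3 (6.01%) also occur in another gene of the trio, and 0 of 2666 in CXCL8. How reads from such windows were assigned is not given in the sources used here. The other genes of the cluster in the table, CXCL5 and CXCL6, encode further ligands of CXCR2. CXCL5 had 90, 69 and 60 counts and CXCL6 had 180, 230 and 261 counts in the controls, and neither had any with VprBP sh. Set against 3 counts per sample, the decreases were at least 26.9-fold for CXCL5 and at least 80.5-fold for CXCL6. PF4 and PPBP, which lie in the same cluster, had no row.

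The interleukin-1 ligands showed the largest decreases. IL1A (ENSG00000115008.6), at chr2:112773925-112784493 on the minus strand, had 6827, 8312 and 9847 counts in the controls and none in any sample with VprBP sh. IL1B (ENSG00000125538.12), nearby on the same strand at chr2:112829751-112836816, had 5739, 6176 and 7244 counts in the controls and none in any sample with VprBP sh. Neither gene gave a single read in any VprBP sh sample, a state found in 3.63% of all genes tested. Their normalized counts in Control sh were 8674 ± 742 and 6677 ± 110 (SD, n = 3), which against 3 counts per sample makes the decrease at least 2998-fold for IL1A and at least 2308-fold for IL1B. The adjusted p-values from edgeR were 3.21e-09 and 1.69e-09. Ranked from the lowest log2 fold change among the 16756 genes tested, IL1A was at position 7 and IL1B at position 11.

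The neighbours of IL1A and IL1B on chromosome 2 up to IL1RN were also lower or near 0 in VprBP sh. IL36G, a skin and epithelial member of the IL-1 family, had 65, 42 and 56 counts in the controls and none with VprBP sh, and IL36RN, the antagonist of the IL-36 receptor, had 168, 135 and 158 counts against 0, 3 and 1 (at least 56.0-fold lower). IL1RN, which encodes the antagonist that competes with IL1A and IL1B for their receptor, kept measurable reads, with 350, 273 and 342 counts in the controls against 41, 99 and 135 with VprBP sh. Its log2 fold change was -2.01 with SE 0.27 (edgeR adjusted p = 9.06e-05). The antagonist was therefore detected in VprBP sh samples in which neither ligand was. IL37, IL1F10 and the lncRNA ENSG00000287937 lay in the same interval and had at most 9 counts in any sample.

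IL6 and LIF are the gp130 ligands of the set. IL6 (ENSG00000136244.12), at chr7:22725884-22732002 on the plus strand, had 62, 70 and 103 counts in the controls and none in any sample with VprBP sh. LIF (ENSG00000128342.5), at chr22:30240453-30246759 on the minus strand, had 390, 570 and 679 counts in the controls against 151, 78 and 114 with VprBP sh. IL6 was thus no longer detected, whereas LIF kept reads in every sample and its groups did not overlap. The decrease of IL6 was at least 28.0-fold against 3 counts per sample (adjusted p = 5.27e-06 from edgeR). LIF went from 566 ± 103 to 111 ± 48 normalized counts (SD, n = 3), or a log2 fold change of -2.36 with SE 0.27 (edgeR adjusted p = 2.69e-05). In the GENCODE 44 annotation IL6 overlaps STEAP1B and IL6-AS1 on the opposite strand, and LIF overlaps LIF-AS1 and LIF-AS2 in the same way. STEAP1B had 118, 130 and 146 counts in the controls against 1, 0 and 2 with VprBP sh. A strand setting of the counting is not given in the sources used here, so that IL6 and its neighbour may share reads.

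CSF1 and TNFAIP3 showed graded decreases with small spread between replicates. CSF1 (ENSG00000184371.14), at chr1:109910242-109930992 on the plus strand, had 1222, 1403 and 1557 counts in the controls against 195, 176 and 250 with VprBP sh. TNFAIP3 (ENSG00000118503.16), at chr6:137867214-137883312 on the plus strand, had 3204, 2793 and 3069 counts in the controls against 71, 78 and 86 with VprBP sh. Each VprBP sh sample lay far below each Control sh sample for both genes. CSF1 went from 1458 ± 54 to 195 ± 18 normalized counts (SD, n = 3), or a log2 fold change of -2.90 with SE 0.11 (edgeR adjusted p = 1.51e-08). TNFAIP3 went from 3188 ± 428 to 74.7 ± 8.2 normalized counts (SD, n = 3), or a log2 fold change of -5.42 with SE 0.14 (edgeR adjusted p = 2.27e-09). The inhibitor thus fell together with the cytokines. TNFAIP3 overlaps the antisense lncRNA WAKMAR2, which had 28, 29 and 34 counts in the controls against 0, 5 and 3 with VprBP sh.

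**Figure D2:**
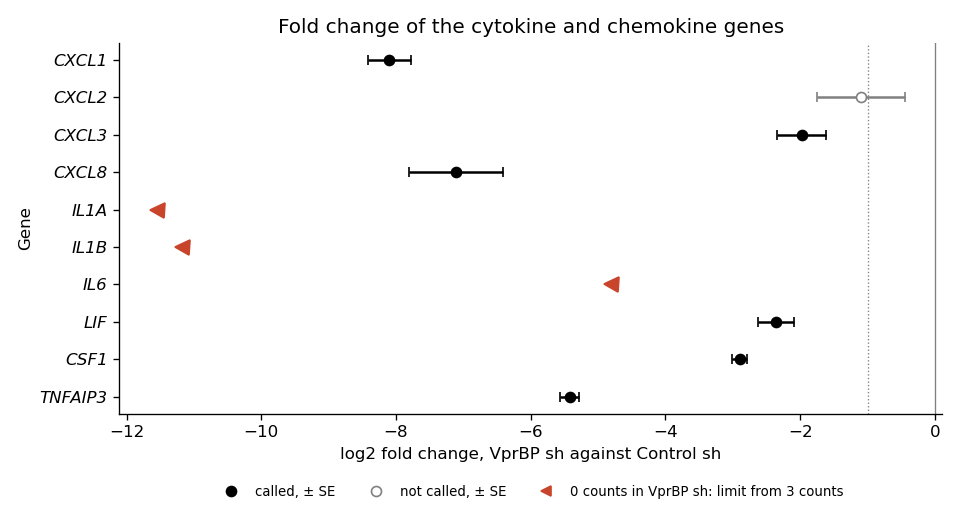
Log2 fold change of each gene in VprBP sh against Control sh. Points give the edgeR estimate ± standard error, filled where called, triangles pointing left give the limit set by 3 counts per sample for IL1A, IL1B and IL6 with 0 counts in VprBP sh, and the dotted line marks a 2-fold decrease. CXCL2, at -1.10, is the gene not called.

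Levels of different genes were compared per kilobase of exon, as normalized counts per kb. In Control sh IL1A was highest, with 3884 to 4582 normalized counts per kb, and IL1B followed with 2188 to 2260, the 2 ranges lying apart. TNFAIP3 (447 to 571), CXCL1 (435 to 506) and CXCL8 (265 to 745) came next with overlapping ranges, and that of CXCL8 also covered CSF1 (268 to 288). LIF (116 to 165), CXCL2 (45.4 to 50.4), IL6 (16.5 to 22.4) and CXCL3 (7.76 to 12.1) stood lower, each apart from its neighbours. In VprBP sh the order was different. CSF1 (34.6 to 41.1 normalized counts per kb), LIF (20.7 to 43.1) and CXCL2 (4.41 to 53.8) were highest with overlapping ranges, TNFAIP3 had 10.1 to 12.5, and the rest were below 10.

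Receptors for these ligands were mostly lower as well, with exceptions. Of the receptors of the CXC chemokines, CXCR2 had 55, 52 and 61 counts in the controls and none with VprBP sh (at least 20.3-fold lower), and CXCR1 and the scavenger receptor ACKR1 had no row. ACKR3, an atypical receptor that takes up CXCL12, had 1110, 996 and 1135 counts in the controls and none with VprBP sh (at least 393-fold lower). ACKR2, which takes up CC chemokines, rose from 8.07 ± 2.33 to 519 ± 55 normalized counts (SD, n = 3), and CCR2, a receptor of CC chemokines, went from 0 counts to 274, 144 and 243 counts (at least 67.0-fold higher). Of 16 chemokine receptors 5 were tested, of which 3 were called as higher and 2 as lower (over all genes tested, 24.5% and 22%). The median log2 fold change was 5.99, or 2.49 with genes at 0 counts set at their limits.

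For interleukin-1, the signalling receptor rose while its partners fell. IL1R1 rose from 222 ± 31 to 658 ± 24 normalized counts (SD, n = 3), or a log2 fold change of 1.57 with SE 0.13 (edgeR adjusted p = 2.63e-06). IL1RAP, the accessory chain needed for signalling, fell from 1462 ± 238 to 239 ± 69 normalized counts (SD, n = 3), and the decoy receptor IL1R2 had 313, 322 and 329 counts in the controls against 9, 0 and 1 with VprBP sh. Beneath the receptor, IRAK2 fell from 422 ± 61 to 5.24 ± 3.14 and IRAK3, an inhibitory family member, from 328 ± 9 to 8.0 ± 4.6 normalized counts (SD, n = 3). The values of MYD88 (log2 fold change 0.92), IRAK1 (0.37), IRAK4 (0.65) and TRAF6 (0.56) were higher in VprBP sh but under 2-fold. Of the 24 genes of the IL-1 family list, 18 were tested, with 1 called as higher and 9 as lower (over all genes tested, 24.5% and 22%). Their median log2 fold change was -0.61.

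For the gp130 ligands, all the receptor chains that bind IL6 or LIF fell. IL6R, the IL-6 binding chain, fell from 1926 ± 51 to 47.6 ± 8.9 normalized counts (SD, n = 3), or a log2 fold change of -5.32 with SE 0.14 (edgeR adjusted p = 2.04e-09). LIFR fell from 1900 ± 37 to 279 ± 21 and the shared chain IL6ST from 3932 ± 12 to 1085 ± 157 normalized counts (SD, n = 3). OSMR, the oncostatin M receptor, fell from 12145 ± 774 to 823 ± 184, and SOCS3, a feedback inhibitor induced by STAT3, from 1614 ± 86 to 115 ± 6 normalized counts (SD, n = 3). STAT3 itself had a log2 fold change of 0.61 and was not called, and the kinase TYK2 rose from 1970 ± 18 to 9855 ± 1208 normalized counts (SD, n = 3). Of 20 genes in this list 18 were tested, with 3 called as higher and 9 as lower (over all genes tested, 24.5% and 22%). Their median log2 fold change was -0.67.

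**Figure D3:**
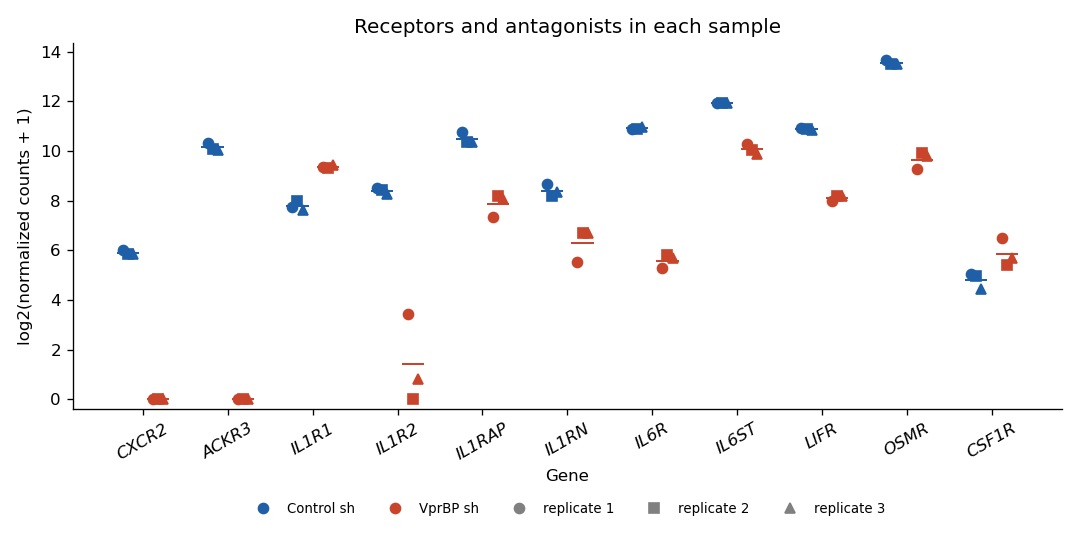
Selected receptors and antagonists in each sample, as log2(normalized counts + 1), with colours, symbols and lines as for the plot of the 10 genes. IL1R1 and CSF1R are higher in VprBP sh, and the other 9 genes are lower, with CXCR2 and ACKR3 at 0 in each VprBP sh sample. The receptor genes ACKR2, CCR2, CSF2RA and CSF3R, which were higher in VprBP sh, are not plotted.

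Beside CSF1, genes of the colony stimulating factor list were called in both directions. CSF2 had 117, 36 and 38 counts in the controls and none with VprBP sh, at least 24.0-fold lower. CSF3 had 53, 49 and 56 counts against 0, 0 and 1, at least 19.1-fold lower. Replicate 1 was the highest Control sh sample for CSF2, as it was for CXCL8. CSF1R, the receptor of CSF1, went from 27.6 ± 6.1 to 60.5 ± 25.6 normalized counts (SD, n = 3), or a log2 fold change of 1.13 with SE 0.35 (edgeR adjusted p = 0.0149). KITLG, the ligand of the receptor KIT, rose from 1157 ± 51 to 3883 ± 484 normalized counts (SD, n = 3), or a log2 fold change of 1.75 with SE 0.10 (edgeR adjusted p = 3.09e-07). The receptor genes CSF3R and CSF2RA had at most 1 count in each Control sh sample and rose to 62, 151 and 224 and to 121, 141 and 201 counts. Of 9 genes in the list 6 were tested, of which 4 were called as higher and 2 as lower (over all genes tested, 24.5% and 22%). The median log2 fold change was 1.44.

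Genes of the NF-kB pathway itself were lower in part. RELA, which encodes the main activating subunit, gave 4733 ± 189 normalized counts in the controls against 3026 ± 223 (SD, n = 3), that is a log2 fold change of -0.65, and NFKB1 had 1585 ± 129 and 968 ± 66 (SD, n = 3), a log2 fold change of -0.71. Neither reached 2-fold, although the adjusted p-values were 6.97e-05 and 9.80e-05 from edgeR. NFKBIA, the inhibitor that NF-kB itself induces, fell from 4290 ± 155 to 1375 ± 324 normalized counts (SD, n = 3), or a log2 fold change of -1.64 with SE 0.16 (edgeR adjusted p = 8.18e-06). The ubiquitin ligase genes BIRC3 and BIRC2 fell from 18335 ± 1845 to 159 ± 10 and from 27247 ± 686 to 1180 ± 60 normalized counts (SD, n = 3). IKBKE, a kinase related to the IKK subunits, and TRAF3, an inhibitor of the non-canonical pathway, had log2 fold changes of -2.65 and -2.07 and were called. Of 34 genes in the list 33 were tested, and 1 was called as higher (NFKBIB, log2 fold change 1.11) and 13 as lower. Over all genes tested, 24.5% were called as higher and 22% as lower. The median log2 fold change of the list was -0.56.

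Among other known NF-kB target genes, 20 of 24 were tested, 15 were called as lower and 0 as higher, and the median log2 fold change was -3.17 against 0.08 for all genes tested. SERPINB2, a plasminogen activator inhibitor, had 4795, 3586 and 4244 counts in the controls against 2, 0 and 2 with VprBP sh (at least 1538-fold lower). PTGS2, the inducible cyclooxygenase, had 315, 257 and 224 counts in the controls and none with VprBP sh (at least 97.7-fold lower), and the cytokine gene IL32 had 1337, 952 and 1126 counts and 1, 0 and 0 counts (at least 417-fold lower). LTB, which encodes lymphotoxin beta, had 450, 237 and 255 counts and 2, 2 and 1 counts (at least 116-fold lower). IER3 and GADD45B, which are induced early by stress, had log2 fold changes of 0.62 and 0.94 and were not called. The number called lower was 75% of those tested, where the background was 22%. These shares are no test of the list, which was chosen with earlier results of these data known. Several of its genes, among them PTGS2 and IL32, also passed the filter through the Control sh samples alone.

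The chemokines outside the set moved in both directions. Of 22 listed genes, 13 were in the table and 12 were tested. Of those tested, 7 were called as lower and 4 as higher (over all genes tested, 22% and 24.5%). Their median log2 fold change was -5.35, or -3.11 with genes at 0 counts set at their limits. CCL20, a chemokine of epithelial cells, had 420, 345 and 362 counts in the controls against 5, 0 and 1 with VprBP sh, or a log2 fold change of -7.63 with SE 0.44 (edgeR adjusted p = 2.52e-07). CCL26 had 80, 98 and 114 counts in the controls and none with VprBP sh (at least 35.1-fold lower). CX3CL1, a membrane-bound chemokine, had none in any control and 1894, 3088 and 4328 counts with VprBP sh, at least 902-fold higher. It was therefore undetected in Control sh and well expressed in every VprBP sh sample.

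**Figure D4:**
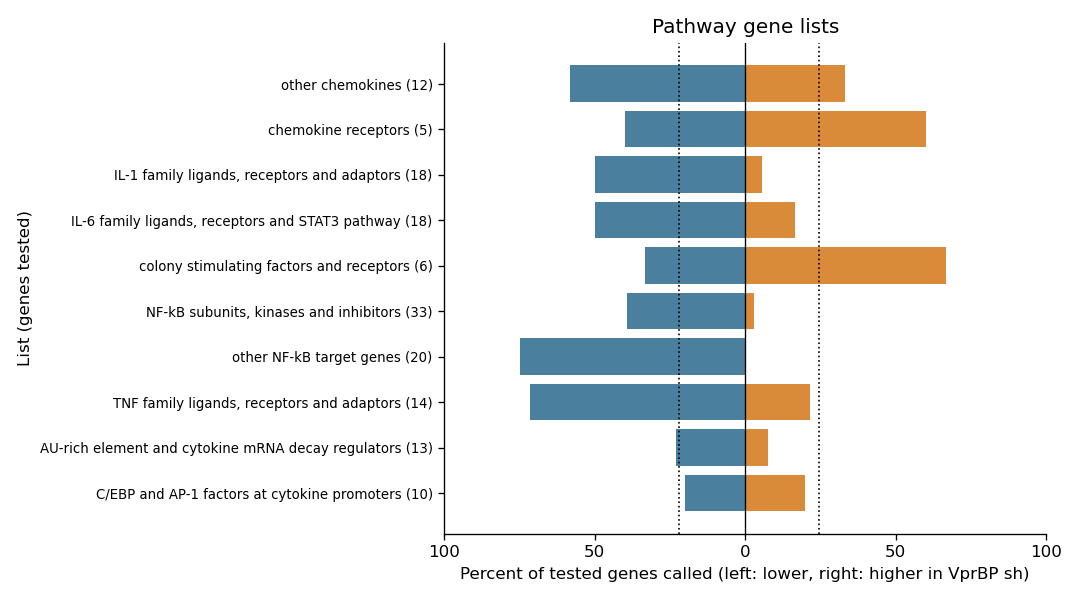
Percent of the tested genes of each pathway list that were called as lower (left, blue) or higher (right, orange) in VprBP sh, with the number tested in brackets. Dotted lines mark the background over all genes tested, 22% lower and 24.5% higher. The list of other NF-kB target genes has the longest bar on the left and none on the right. The lists were chosen with earlier results of these data known.

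Of the transcription factors that act with NF-kB at cytokine promoters, FOSL1 and FOS moved in opposite directions. FOSL1, an AP-1 subunit, had 3179, 3166 and 3471 counts in the controls against 35, 10 and 16 with VprBP sh, or a log2 fold change of -7.46 with SE 0.30 (edgeR adjusted p = 2.32e-08). FOS, an immediate early gene, had 1057, 414 and 542 counts in the controls against 13372, 3104 and 4363 with VprBP sh, or a log2 fold change of 3.30 with SE 0.64 (edgeR adjusted p = 0.00106). In normalized counts, replicate 1 was highest in each group for FOS, CXCL8 and CXCL1, and in VprBP sh also for CXCL2, CXCL3, LIF and CSF1. CEBPA, a C/EBP factor, rose from 252 ± 20 to 1873 ± 485 normalized counts (SD, n = 3). Of the 10 factors listed 2 were called as higher and 2 as lower (over all genes tested, 24.5% and 22%). The median log2 fold change was -0.22. The part of replicate 1 in the chemokine values was not tested beyond leaving it out, a choice made after the data were seen. With replicates 2 and 3 of each group, all 10 genes of the set were called as lower. In that fit 8179 of the 17241 genes tested were called, 3924 of them as lower.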

How the data were processed

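Gene expression was measured by RNA-seq in 3 Control sh and 3 VprBP sh samples. Per the paper's methods and the labels, the authors used STAR to align single-end reads to hg38 and Partek Flow to quantify genes, and the deposited values are estimated counts, neither normalized nor pooled. Over the 6 samples each gene sums to 10 or more, and 59.4% of the values are exactly whole, with no tolerance. Estimated counts were rounded to whole numbers before the test. The paper names a strand-specific KAPA kit, the labels a SMARTER kit.

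Groups came from the sample titles. VprBP sh was compared with Control sh in edgeR 4.0.16 (R 4.3.3), using the quasi-likelihood test, factors from the upper quartile (0.75), the package's filter on low counts (minimum 10) and Benjamini-Hochberg adjustment over the 16756 genes tested. The authors' own test, the Gene Specific Algorithm of Partek, was not used here, but its cutoffs were kept. At those cutoffs 7778 genes were called here, several times the number that the paper reported. The SE of a log2 fold change is its size over the root of F. Division by upper quartile size factors (geometric mean 1) gave normalized counts. Where no sample of a group exceeded 3 counts, the fold was set against 3 counts per sample (2.28 to 3.44 normalized counts), which covers counting error only. Exon lengths and overlaps came from GENCODE 44.

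The 10 genes and the gene lists were chosen with earlier results of these data known. Beside the 10 genes and DCAF1, the text names up to 4 called genes per list with the largest log2 fold change and a mean of 100 normalized counts or more in 1 of the groups, direct receptors and inhibitors, the genes of the chromosome 4 cluster, and the 3 tested genes most like CXCL8. The other genes named (among them the chromosome 2 neighbours, CSF2, CSF3, adaptors given by log2 fold change, and the overlapping genes) were chosen after their values were seen. Alternatives were TMM factors, library size alone, DESeq2 1.42.0, limma-voom (limma 3.58.1), other filters, glmTreat at 2-fold, a replicate block, summing replicates 2 and 3, and leaving out samples. The tests were tried on simulated counts with far fewer changed genes, no outlying replicate and no gene absent from a group, unlike the data here.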

Additional observations from a re-analysis of the deposited data

How the results depend on the processing

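Of the 9 genes called as lower, each kept its call under every alternative in which it was tested. Requiring 10 counts or more in each sample removed all of them but LIF, CSF1 and TNFAIP3, and also CXCL2. The 3 genes left of the 10 were all called, as were 4690 of the 13103 genes tested, 1996 of them as lower. The filter called 2 of the other chemokines, 0 chemokine receptors, 5 IL-1 family genes and 2 of the colony stimulating factor list. It tests no gene with under 10 counts in any sample, so that genes off or low in a group drop out. Without a filter 9 chemokine receptors were called, and with DESeq2 8. For DCAF1 the log2 fold change was -0.37 with library size alone (edgeR adjusted p = 0.0851), -0.46 with replicates 2 and 3 summed (edgeR adjusted p = 0.0839) and -0.58 in the edgeR test against a 2-fold change (adjusted p = 1). It ran from -0.82 to -0.46 over the fits that left out 1 sample, each with an adjusted p below 0.05. CXCL2 was called with limma-voom (-1.80), without VprBP sh replicate 1 (-2.58) and without replicate 1 of both groups (-2.57), and its log2 fold change ran from -2.58 to -0.63 over all alternatives. Scaling by library size alone moved the median of all genes tested from 0.08 to 0.29. Same-numbered samples did not deviate together (correlations of -0.14, -0.03 and -0.11 over 13303 genes), and the main test did not pair them. This measure cannot exclude a weaker pairing or one confined to some genes, because each correlation is taken over all 13303 genes together. With the replicate block 7686 genes were called in all, the log2 fold change of CXCL2 was -1.53 (adjusted p = 0.0809 from edgeR), and no call among the 10 genes changed. Depth limits the values of CXCL2, CXCL3 and IL6, which had at most 75, 25 and 103 counts in a sample.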

Other observations

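The TNF family, whose receptors feed the same NF-kB pathway, was mostly lower in VprBP sh. Of 17 listed genes 14 were tested, and 10 were called as lower and 3 as higher (over all genes tested, 22% and 24.5%). The median log2 fold change was -2.11. TNFRSF9, a costimulatory receptor, had 461, 195 and 315 counts in the controls and none with VprBP sh (at least 119-fold lower). TNFSF15 fell from 355 ± 122 to 14.6 ± 4.9, TNFRSF21 from 12670 ± 1051 to 834 ± 98 and the death receptor gene FAS from 405 ± 35 to 38.6 ± 6.9 normalized counts (SD, n = 3). The adaptor kinase gene RIPK1 rose, with a log2 fold change of 1.10 with SE 0.12 (edgeR adjusted p = 2.65e-05).

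Regulators of AU-rich and cytokine mRNA decay showed no common direction. Of 13 genes tested 3 were called as lower and 1 as higher (over all genes tested, 22% and 24.5%). The median log2 fold change was -0.04. ZC3H12C had 686, 426 and 457 counts in the controls and none with VprBP sh (at least 193-fold lower). ZC3H12A, whose product degrades IL6 mRNA, fell from 2859 ± 553 to 1074 ± 158 and ZFP36L2 from 4966 ± 185 to 2258 ± 339 normalized counts (SD, n = 3), whereas TIA1, a translational silencer, rose from 439 ± 52 to 2359 ± 344 (SD, n = 3). The value of ZFP36, which binds AU-rich elements of cytokine mRNAs, had a log2 fold change of 0.43 and was not called.

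The tested genes whose pattern over the 6 samples was most like that of CXCL8 were CCL20, IL1R2 and ADAMTS1, with root mean square differences of 0.46, 0.51 and 0.60 between centred log2(normalized counts + 1) values. CCL20 is a chemokine and IL1R2 the decoy receptor of interleukin-1. ADAMTS1, a secreted metalloproteinase, had 210, 235 and 234 counts in the controls against 5, 0 and 0 with VprBP sh.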
